A study of Mus musculus with 16 samples.

Results

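The estrogen response of wild-type bone was read from 8 microarrays, 4 of ovariectomized female C57BL/6 mice killed 4 hours after estrogen and 4 of such mice given vehicle. They were chosen by the genotype and treatment in their titles, though with earlier results of these data known, and are 8 of the 16 arrays of the series. The other 8 came from ovariectomized female C57BL/6 mice in which estrogen receptor alpha was knocked out in osteoclasts (ERaKO), 4 with estrogen for 4 hours and 4 given vehicle according to the series design. All 16 mice lacked ovaries, and each array held unpooled RNA of 1 mouse, from the lowest 5 mm of its left femur. The estrogen compound, its dose, the age of the mice and the driver of the deletion do not appear in the sources used here. The response is described across 12735 genes with a mean signal above about 109. Signals are the authors' linear intensities, and each difference is estrogen minus vehicle on the log2(signal + 16) scale with its SE, from 1 limma fit of all 16 arrays. That fit holds a mean for each of the 4 groups and a term for the replicate set, since in every group the mice numbered 1 and 2 had higher 18S ribosomal RNA and muscle signals than those numbered 3 and 4.

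Estrogen receptor alpha, the product of Esr1, is a nuclear receptor that binds estrogen, attaches to DNA at estrogen response elements or through partners such as AP-1 and NF-kappaB, and raises or lowers transcription. In bone it acts in osteoclasts, which resorb mineral, in osteoblasts and osteocytes, which form and sense it, and in marrow stroma, where it also restrains the making of B lymphocytes. Loss of ovarian estrogen speeds bone turnover, and giving estrogen back slows resorption and later also formation.

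The arrays showed bone with its marrow, growth cartilage and some muscle. Of 29 defining markers of 9 cell types, 25 had a named probe set and all 25 lay above the filter. In wild type the osteoclast protease gene Ctsk ran between 3295 and 12379, the bone collagen gene Col1a1 between 26882 and 33989 and the neutrophil peroxidase gene Mpo between 20832 and 53936. The skeletal muscle creatine kinase gene Ckm ran between 515 and 43152, so muscle content differed between mice. The mean log2 level of 25 muscle genes was 12.34, 12.62, 9.60 and 8.75 in estrogen mice 1 to 4 and 13.37, 13.85, 9.90 and 9.41 in vehicle mice 1 to 4. Among mice 1 and 2 both estrogen mice were below both vehicle mice, while estrogen mouse 3 lay above vehicle mouse 4. The part of muscle in the results was not tested beyond the fits with the muscle level given below. Estrogen mouse 2 and vehicle mouse 2 also had high bacterial spike-in signals (32823 and 50791, against 7752 to 13503 in the other 6) and a high 3'/5' signal ratio for Actb (2.44 and 3.53, against 1.5 or less). The main counts, and the values that move most without these arrays, are given without them below.

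In wild-type femur 4 hours of estrogen raised Ikbke and Tex2 and lowered Igf1, Klhl13 and Fam167a, the 5 genes of 12735 (0.0393%) at a limma adjusted p under 0.05. In all 5 the 4 estrogen arrays and the 4 vehicle arrays did not overlap, which held for 4.5% of all tested genes. The 5 genes were picked by their p on these same arrays, so the gap is no added support. Ikbke, which encodes a kinase of the interferon and NF-kappaB pathways, had signals of 494, 739, 852 and 623 in estrogen mice 1 to 4, against 127, 94.0, 237 and 333 in vehicle mice 1 to 4. The lowest estrogen mouse stood well above the highest vehicle mouse, and the difference was 1.81 ± 0.26 (adjusted p = 0.0161). Igf1, a growth factor that bone cells make and answer to, had signals of 918, 848, 389 and 651 with estrogen, against 2029, 2897, 1402 and 1434 with vehicle. Each estrogen mouse was below every vehicle mouse, and in both groups mice 1 and 2 were higher than mice 3 and 4. The difference was −1.45 ± 0.21 (adjusted p = 0.0161). In a piece of whole bone, fewer cells that make a transcript and less transcript per cell cannot be told apart.

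Tex2, whose product moves lipids at endoplasmic reticulum contact sites, had signals of 1988, 1631, 1796 and 2210 with estrogen, against 1084, 803, 886 and 888 with vehicle. The spread within each group was small beside the gap, and the difference was 1.04 ± 0.16 (adjusted p = 0.0161). Klhl13, an adaptor that brings substrates to the Cul3 ubiquitin ligase, had signals of 498, 494, 397 and 483 with estrogen, against 1106, 1540, 843 and 1016 with vehicle. Its estrogen values lay close together and the vehicle values spread more widely above them, with a difference of −1.21 ± 0.19 (adjusted p = 0.0212). Fam167a had signals of 88.4, 74.6, 95.4 and 216 with estrogen, against 226, 253, 493 and 471 with vehicle, a difference of −1.51 ± 0.26 (adjusted p = 0.046). Estrogen mouse 4, at 216, came close to vehicle mouse 1, at 226, and the other estrogen mice were well below all vehicle mice.

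**Figure D1:**
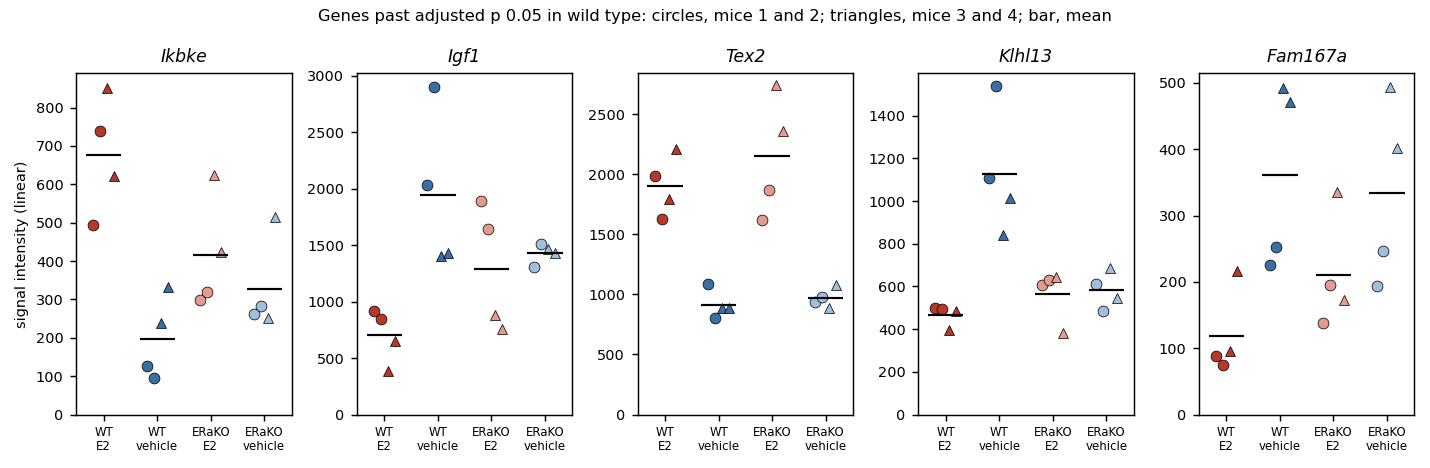
Signal intensity of the 5 genes past adjusted p 0.05 in wild type, 1 point per mouse, for wild-type estrogen, wild-type vehicle, ERaKO estrogen and ERaKO vehicle mice (linear axes from 0, bars at group means). Circles are mice 1 and 2 and triangles mice 3 and 4. In wild type no estrogen point overlaps the vehicle points for any of the 5 genes, while in ERaKO mice only Tex2 keeps the groups apart.

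Both replicate sets gave these 5 genes the same direction, which their choice by p on the same arrays favours. Among mice 1 and 2 the differences were 2.31 for Ikbke, −1.44 for Igf1, 0.94 for Tex2, −1.37 for Klhl13 and −1.39 for Fam167a. Among mice 3 and 4 they were 1.32, −1.46, 1.15, −1.05 and −1.63 in the same order. With the replicate number as a block the sizes were the same and 0 genes passed: the adjusted p was 0.0504 for Ikbke, Igf1 and Tex2, 0.0697 for Klhl13 and 0.074 for Fam167a. Without the replicate set term 0 genes passed, and adjusted p was 0.1 to 0.238 for the 5. With the 3 high spike-in arrays left out (those 2 and ERaKO estrogen mouse 1) 0 passed, and the 5 differences were 1.49, −1.35, 1.06, −1.08 and −1.49 in the order above. With the muscle level added to the fit beside the replicate set, a setting chosen after seeing the data, they were 1.82, −1.33, 0.98, −1.08 and −1.42, and adjusted p was 0.0973 to 0.116. Leaving out 1 array gave 0 genes without vehicle mouse 2, vehicle mouse 3, estrogen mouse 2 or estrogen mouse 3, 1 without vehicle mouse 4, 48 without estrogen mouse 1, 72 without estrogen mouse 4 and 78 without ERaKO estrogen mouse 1. The sizes kept their direction in all these fits, and the side of the threshold changed.

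Other probe sets of the same genes were read in the same way. All 4 Igf1 probe sets were lower with estrogen, at −1.45, −1.23, −0.95 and −0.63. The second Tex2 probe set averaged 421.5 with estrogen and 277.5 with vehicle, a difference of 0.58 ± 0.18. The second Klhl13 probe set averaged 98.3 with estrogen and 137 with vehicle, a difference of −0.79 ± 0.51. Ikbke and Fam167a had 1 probe set each. With the mean over all probe sets of a gene Igf1 stood at −1.06 (limma adjusted p = 0.0765) and Klhl13 at −1.0 (limma adjusted p = 0.198), so neither passed.

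The start regions of the 5 genes were looked up in RefSeq (GRCm38.p6), as 250 bases before and 50 after the start, because the receptor can act on a promoter directly or through AP-1. The table listed 4 of the 5 genes, and the regions of Tex2, Igf1 and Ikbke are shown since each has a single listed start. Capitals mark the estrogen response half-site (GGTCA, or TGACC on the other strand) and an AP-1-like pattern (TGANTCA, which reads the same on both strands). With any base at N, that pattern is looser than the AP-1 consensus, which has C or G there. None of the 3 held the full estrogen response element, in which GGTCA and TGACC follow each other with 3 bases between them.
Tex2 (chr11:106612881-106613180, minus strand): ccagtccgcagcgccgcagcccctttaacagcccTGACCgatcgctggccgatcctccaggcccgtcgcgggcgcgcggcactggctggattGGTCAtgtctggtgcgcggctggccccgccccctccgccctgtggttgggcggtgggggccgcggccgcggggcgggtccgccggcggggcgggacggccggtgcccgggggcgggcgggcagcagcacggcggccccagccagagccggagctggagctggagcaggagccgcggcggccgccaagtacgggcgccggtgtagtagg
Igf1 (chr10:87860861-87861160, plus strand): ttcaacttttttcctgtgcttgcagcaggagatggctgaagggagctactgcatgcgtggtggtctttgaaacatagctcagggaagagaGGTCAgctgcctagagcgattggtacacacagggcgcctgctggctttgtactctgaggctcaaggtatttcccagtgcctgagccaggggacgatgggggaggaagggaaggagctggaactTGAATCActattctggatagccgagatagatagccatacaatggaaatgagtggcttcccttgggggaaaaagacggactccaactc
Ikbke (chr1:131279514-131279813, minus strand): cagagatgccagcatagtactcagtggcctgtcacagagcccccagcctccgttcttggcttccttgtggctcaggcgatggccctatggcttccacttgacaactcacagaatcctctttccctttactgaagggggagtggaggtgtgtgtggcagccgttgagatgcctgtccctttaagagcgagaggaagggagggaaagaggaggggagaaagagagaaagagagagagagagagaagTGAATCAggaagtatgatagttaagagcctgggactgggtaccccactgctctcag
The Tex2 region held 2 half-sites, the Igf1 region 1 half-site and 1 AP-1-like pattern, and the Ikbke region 1 AP-1-like pattern. Both AP-1-like stretches read TGAATCA, with A at N, so neither is the AP-1 consensus. Of 32851 such regions in the table, 40.5% held a half-site, 7.81% the AP-1-like pattern and 0.07% the full element. These matches are letters in a window and say nothing of binding.

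In ERaKO mice the same treatment was given without the receptor in osteoclasts. Esr1 had signals of 753, 513, 484 and 409 in their estrogen group, against 580, 627, 723 and 617 in their vehicle group, which in whole bone does not check a deletion in 1 cell type. Tex2 averaged 2148 ± 503 with estrogen and 971 ± 82.1 with vehicle there (SD, n = 4 each), a difference of 1.11 ± 0.16 (limma adjusted p = 0.0232), and it was the 1 gene of 12735 (0.00785%) that passed in ERaKO mice. Its wild-type response minus its ERaKO response was −0.06 ± 0.22. In ERaKO mice Ikbke differed by 0.33 ± 0.26, Igf1 by −0.24 ± 0.21, Klhl13 by −0.06 ± 0.19 and Fam167a by −0.61 ± 0.26. The wild-type minus ERaKO response was 1.48 ± 0.36 for Ikbke, −1.21 ± 0.30 for Igf1, −1.15 ± 0.27 for Klhl13 and −0.90 ± 0.36 for Fam167a, each with a limma adjusted p of 0.276 or above. Across all genes 0 passed the test of a difference between the genotypes, with 1536 (12.1%) at an unadjusted p under 0.05, so no gene is called particular to wild type. Without ERaKO estrogen mouse 4 alone, 46 genes passed that test.

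With the 5 genes above included, 47 genes (0.369%) had a limma adjusted p under 0.1, with 20 higher and 27 lower after estrogen. All 20 higher genes and 22 of the 27 lower genes had no overlap between the 4 estrogen and 4 vehicle arrays. Of all tested genes 2.21% and 2.29% had none. All 47 had the same sign in both replicate sets. The genes were picked by their p on these same arrays, so these counts are no added support. Their median difference was 1.15 for the higher genes and −1.12 for the lower ones in wild type. The same genes had medians of 0.22 and 0.01 in ERaKO mice, where 14 of the 20 and 12 of the 27 had the wild-type sign, 2 and 3 of them at an unadjusted p under 0.05, against 3.27% of all genes higher and 4.17% lower at that threshold there. The 2 comparisons come from mice that were not shared, but the genes were picked by the wild-type values.

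**Figure D2:**
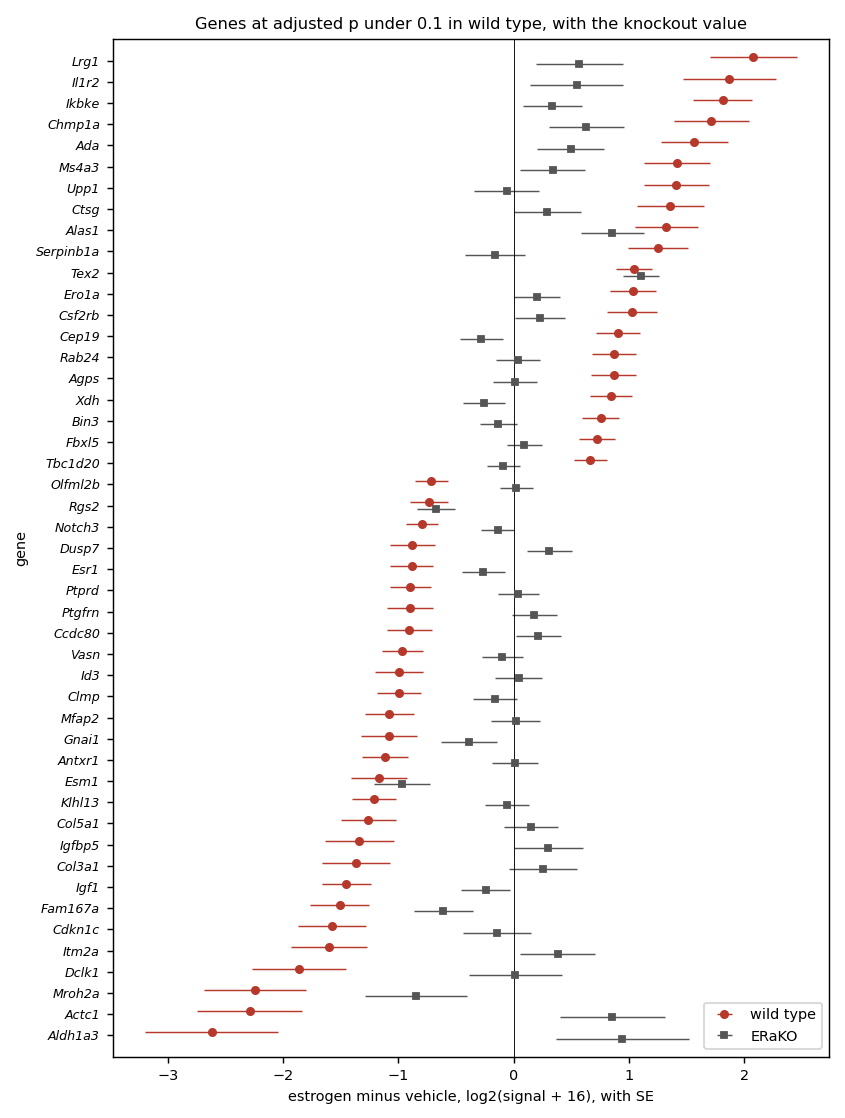
Estrogen minus vehicle difference on the log2(signal + 16) scale, with SE, of the 47 genes at adjusted p under 0.1 in wild type, for wild-type mice (red circles) and ERaKO mice (grey squares). Tex2, Rgs2 and Esm1 have like values in both genotypes, and the ERaKO medians are 0.22 for the 20 higher genes and 0.01 for the 27 lower ones.

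Among the higher genes of this group, Lrg1, a leucine-rich glycoprotein of neutrophil granules, had signals of 7080, 22977, 9859 and 5551 with estrogen, against 2332, 1496, 2501 and 3142 with vehicle. Mouse 2 was the highest by far, and the lowest estrogen mouse was still above the highest vehicle mouse. The difference was 2.08 ± 0.38 (adjusted p = 0.0585), and it was 1.65 without estrogen mouse 2 and 1.46 with the 3 high spike-in arrays left out. Ada, adenosine deaminase, averaged 1226 ± 532 with estrogen and 379 ± 80.0 with vehicle, and Upp1, uridine phosphorylase, averaged 532 ± 335 with estrogen and 172 ± 50.3 with vehicle (SD, n = 4 each). Their differences were 1.57 ± 0.29 (adjusted p = 0.0585) and 1.41 ± 0.28 (adjusted p = 0.0678). Alas1, the first enzyme of heme synthesis outside red cells, stood at 1.32 ± 0.27, and Ero1a, which drives disulfide formation in the endoplasmic reticulum, at 1.04 ± 0.20. Chmp1a, a subunit of the membrane-cutting ESCRT-III complex, stood at 1.71 ± 0.33. Apart from Lrg1, the higher genes named here have unlike roles. The neutrophil genes Ms4a3, Serpinb1a and Ctsg also belong to this group and are given below. The group was not tested for shared function.

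Among the lower genes, Notch3, a Notch receptor of vessel wall cells, had signals of 1184, 989, 750 and 896 with estrogen, against 1497, 1671, 1672 and 1761 with vehicle. The groups were apart, and the difference was −0.80 ± 0.14 (adjusted p = 0.0582). Vasn, a membrane protein that binds TGF-beta, stood at −0.97 ± 0.18, and the cell cycle inhibitor gene Cdkn1c at −1.58 ± 0.29 (adjusted p = 0.0585 for both). The microfibril gene Mfap2 stood at −1.08 ± 0.21 and the adhesion gene Clmp at −1.0 ± 0.19. Actc1, a striated muscle actin, had signals of 2292, 1199, 228 and 168 with estrogen, against 14766, 14753, 600 and 521 with vehicle. It was far higher in mice 1 and 2 of both groups, as were the muscle genes, and stood at −2.29 ± 0.45 (adjusted p = 0.0678).

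**Figure D3:**
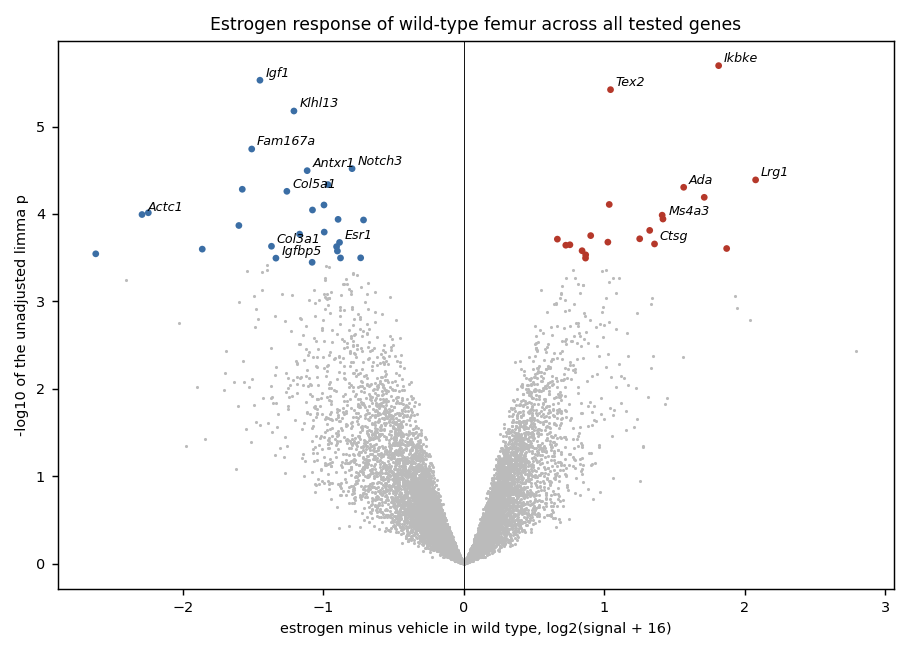
Estrogen minus vehicle difference in wild type on the log2(signal + 16) scale (x) against −log10 of the unadjusted limma p (y), 1 point for each of 12735 tested genes. The 20 higher (red) and 27 lower (blue) genes at adjusted p under 0.1 are coloured. Ikbke, Igf1, Tex2 and Klhl13 stand highest.

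At an unadjusted p under 0.05, 682 genes were higher (5.36%) and 914 lower (7.18%) after estrogen, 1596 (12.5%) in all. Without any difference 637 would be expected on average. Such a count varies more widely when genes move together, and the excess was not tested. Over all tested genes 6094 differences were above 0 and 6641 were at or below it, with a median of −0.01. The counts of gene lists below are read against these shares. The 44 lists held 1057 genes, of which 978 had a probe set and 873 were tested. They were chosen with earlier results of these data known, so their direction is not independent evidence.

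The matrix genes of connective tissue were mostly lower after estrogen. Of 19 genes of fibrillar and other collagens, without those of cartilage and the type I collagen of bone, 18 were lower and 11 (57.9%) lay lower at an unadjusted p under 0.05, against 7.18% of all genes, with a median difference of −0.72. None was higher at that threshold. Col3a1, the collagen of soft connective tissue and vessels, had signals of 13756, 10090, 5015 and 9415 with estrogen, against 28437, 41939, 14357 and 17172 with vehicle. No estrogen mouse reached the lowest vehicle mouse, and the difference was −1.37 ± 0.29 (adjusted p = 0.0837). Col5a1, which sets the width of collagen fibrils, had signals of 2604, 1990, 1893 and 876 with estrogen, against 4046, 4818, 4017 and 3707 with vehicle. The groups were again apart, with a difference of −1.26 ± 0.24 (adjusted p = 0.0585). Col12a1 stood at −1.29 ± 0.32 and Col15a1 at −1.06 ± 0.27. Within the list the basement membrane genes Col4a1 and Col4a2, named after their values were seen, stood at −0.02 and −0.12.

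The collagen count was 11 in each of the 8 fits that left out 1 wild-type array, 11 with the 3 high spike-in arrays left out (median −0.55) and 11 with the muscle level in the fit (median −0.58). The list's median was −0.54 among mice 1 and 2 and −0.70 among mice 3 and 4, and 0.22 in ERaKO mice. The mean log2 level of the list was 10.41, 9.91, 9.96 and 10.27 in estrogen mice 1 to 4, against 10.60, 10.90, 10.80 and 10.75 in vehicle mice 1 to 4, without overlap.

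Proteoglycans and crosslinking proteins that join collagen fibrils were also mostly lower. Of 27 tested genes 21 were lower, 10 (37%) of them at an unadjusted p under 0.05, with a median of −0.30. Lum, a proteoglycan that spaces collagen fibrils, had signals of 5499, 4206, 3464 and 5400 with estrogen, against 10117, 9999, 10162 and 10644 with vehicle. The 4 vehicle mice were nearly equal and all 4 estrogen mice lay far below them, a difference of −1.16 ± 0.31 (adjusted p = 0.138). Antxr1, a membrane receptor that binds collagen, had signals of 1143, 863, 962 and 1261 with estrogen, against 2134, 2509, 2307 and 2213 with vehicle. Its groups were well apart, with a difference of −1.12 ± 0.20 (adjusted p = 0.0582). Fmod and Thbs2 stood at −1.48 ± 0.38 and −1.11 ± 0.36, with overlap between the groups. The count at that threshold was 5 without the replicate set term and 7 with the muscle level in the fit, where the median was −0.18.

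Enzymes that cut matrix and their inhibitors gave 15 of 19 lower and 6 (31.6%) lower at an unadjusted p under 0.05, with a median of −0.25. The median was −0.12 without estrogen mouse 2 and −0.12 with the 3 high spike-in arrays left out. The gelatinase gene Mmp2 averaged 1967 ± 413 with estrogen and 3931 ± 1079 with vehicle, and the inhibitor gene Timp1 averaged 1490 ± 416 with estrogen and 2899 ± 390 with vehicle (SD, n = 4 each). Neither overlapped, and the differences were −0.98 ± 0.24 for Mmp2 and −0.99 ± 0.24 for Timp1 (adjusted p = 0.112 for both). A protease and an inhibitor of such proteases were thus lower side by side.

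Of 18 tested osteoblast genes 15 were lower and 5 (27.8%) at an unadjusted p under 0.05, with a median of −0.25. Sp7 and Dlx5, transcription factors of the osteoblast lineage, stood at −0.70 ± 0.29 and −0.72 ± 0.22. The count was 1 without the replicate set term, and 2 without vehicle mouse 3, vehicle mouse 4 or estrogen mouse 3. Col1a1, the collagen of bone itself, averaged 30720.3 with estrogen and 30018 with vehicle, a difference of 0.04. Of 15 tested osteocyte genes 5 were higher and 10 lower, with a median of −0.07. At an unadjusted p under 0.05, 1 (6.67%) was higher and 2 (13.3%) lower. The higher one was Dmp1, a matrix protein that directs mineralization. It had signals of 20165, 16328, 20185 and 20225 with estrogen, against 12324, 15214, 12140 and 14374 with vehicle. All estrogen mice were above all vehicle mice, and the difference was 0.51 ± 0.18 (adjusted p = 0.249) in wild type beside 0.77 ± 0.18 in ERaKO mice.

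Of 23 tested osteoclast genes 13 were higher and 10 lower, with 1 higher and 0 lower at an unadjusted p under 0.05 (4.35% against 5.36% of all genes). That gene was Jdp2, an AP-1 factor of osteoclast formation, at 0.51 ± 0.15. Ctsk stood at −0.38 ± 0.21 (adjusted p = 0.473). The osteoclast survival pathway was as near to 0: of 9 genes of RANKL and M-CSF signalling 0 passed at an unadjusted p under 0.05, with Tnfsf11, the gene of RANKL, at 0.09 ± 0.29 and Tnfrsf11b, its decoy receptor, at −0.34 ± 0.31. An osteoclast is a small share of the RNA of whole bone, and these values bear on the tissue only.

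Cartilage genes gave 24 of 27 lower but 4 (14.8%) at an unadjusted p under 0.05, with a median of −0.65. The median was 0.13 among mice 1 and 2 and −1.26 among mice 3 and 4, so the sets disagreed. Ihh, which paces growth plate cartilage, stood at −0.86 ± 0.26 and the matrix gene Epyc at −1.38 ± 0.49, with overlap between the groups for both. The list's mean log2 level was 10.46, 9.89, 9.92 and 10.32 in estrogen mice 1 to 4, against 10.17, 9.89, 11.32 and 11.29 in vehicle mice 1 to 4. Vehicle mice 3 and 4 alone were high, and without vehicle mouse 3 the median was −0.38 and 2 genes were lower at that threshold.

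Lists of local growth factor pathways had more lower than higher genes, by little in the Notch list. In the IGF axis 11 of 18 genes were lower, 5 (27.8%) at an unadjusted p under 0.05, with a median of −0.43. Igfbp5, a binding protein that holds IGF in bone matrix, had signals of 2738, 2467, 779 and 2291 with estrogen, against 6332, 6953, 3227 and 3560 with vehicle. The groups did not overlap, and the difference was −1.34 ± 0.30 (adjusted p = 0.0887). Grb10, which dampens the IGF receptor, stood at −0.70 ± 0.18 and Stc1, a secreted hormone, at −0.69 ± 0.23. The median of the list was −0.22 with the 3 high spike-in arrays left out and −0.17 with the muscle level in the fit.

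Of 38 TGF-beta, activin and BMP genes 28 were lower, with 9 lower (23.7%) and 3 higher (7.89%) at an unadjusted p under 0.05, and a median of −0.30. Id3, a direct target of BMP signalling, had signals of 1154, 835, 1142 and 1129 with estrogen, against 1309, 1501, 3355 and 3055 with vehicle. The estrogen mice stayed below all vehicle mice, but the gap was wide only in mice 3 and 4, and the difference was −0.99 ± 0.21 (adjusted p = 0.0821). Fstl1, a secreted BMP-binding protein, stood at −0.97 ± 0.25, Gdf10, a ligand of this family, at −1.17 ± 0.31, and Chrdl1, a BMP antagonist, at −0.74 ± 0.22. Of 31 Wnt genes 25 were lower, with 5 lower (16.1%) and 2 higher (6.45%) at an unadjusted p under 0.05, the lower ones including the secreted inhibitor gene Sfrp4 (−0.96 ± 0.29) and the intracellular inhibitor gene Nkd2 (−1.01 ± 0.31). Of 21 Notch genes 9 were higher and 12 lower, with a median of −0.04. At that threshold 3 (14.3%) were lower, Notch3, Jag1 (−0.50 ± 0.20) and Hey1 (−0.94 ± 0.41), and 1 (4.76%) was higher, Numb, an inhibitor of the pathway, at 0.57 ± 0.21. Ptn, a heparin-binding growth factor of marrow stroma, had signals of 357, 248, 64.8 and 211 with estrogen, against 1388, 2181, 624 and 706 with vehicle. Every estrogen mouse was below every vehicle mouse, and the difference was −2.40 ± 0.57 (adjusted p = 0.108).

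Genes of granulocyte precursors were mostly higher. Of 14 tested genes of neutrophil primary granules, which are filled at the promyelocyte stage, 13 were higher and 10 (71.4%) lay higher at an unadjusted p under 0.05, against 5.36% of all genes, with a median of 0.65. Ms4a3, a membrane protein of granulocyte and monocyte progenitors, had signals of 5400, 9536, 11957 and 7214 with estrogen, against 2747, 2564, 3144 and 3883 with vehicle. The groups did not overlap, and the difference was 1.42 ± 0.28 (adjusted p = 0.0678). Ctsg, the granule protease cathepsin G, had signals of 7961, 14282, 16894 and 9075 with estrogen, against 4054, 4206, 4365 and 5379 with vehicle. Estrogen mice 2 and 3 were the highest, and the difference was 1.36 ± 0.29 (adjusted p = 0.0837). The elastase inhibitor gene Serpinb1a stood at 1.25 ± 0.26, elastase itself (Elane) at 0.97 and myeloperoxidase (Mpo) at 0.63. The 1 member that was lower, Mcpt8, encodes a protease of basophils and stood at −0.83 ± 0.20.

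The primary granule median was 0.87 among mice 1 and 2 and 0.48 among mice 3 and 4, and 0.02 in ERaKO mice. The count of higher members was 7 to 11 when 1 wild-type array was left out, 7 with the 3 high spike-in arrays left out and 6 with the muscle level in the fit, where the median was 0.41. Genes of later neutrophil stages gave 19 of 23 higher and 6 (26.1%) higher at an unadjusted p under 0.05, with a median of 0.34 led by Lrg1. Hp, haptoglobin, averaged 19739 ± 10158 with estrogen and 9334 ± 957 with vehicle and stood at 0.95 ± 0.28. With the 3 high spike-in arrays left out that median was 0.07, and without estrogen mouse 2 alone it was 0.08. S100a8, an abundant gene of mature neutrophils, stood at −0.06. Monocyte and macrophage genes gave 5 of 27 (18.5%) higher and 0 lower at an unadjusted p under 0.05, with a median of 0.10, among them the Fc receptor gene Fcgr3 (0.54 ± 0.19) and the chemokine receptor gene Ccr2 (0.57 ± 0.23).

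**Figure D4:**
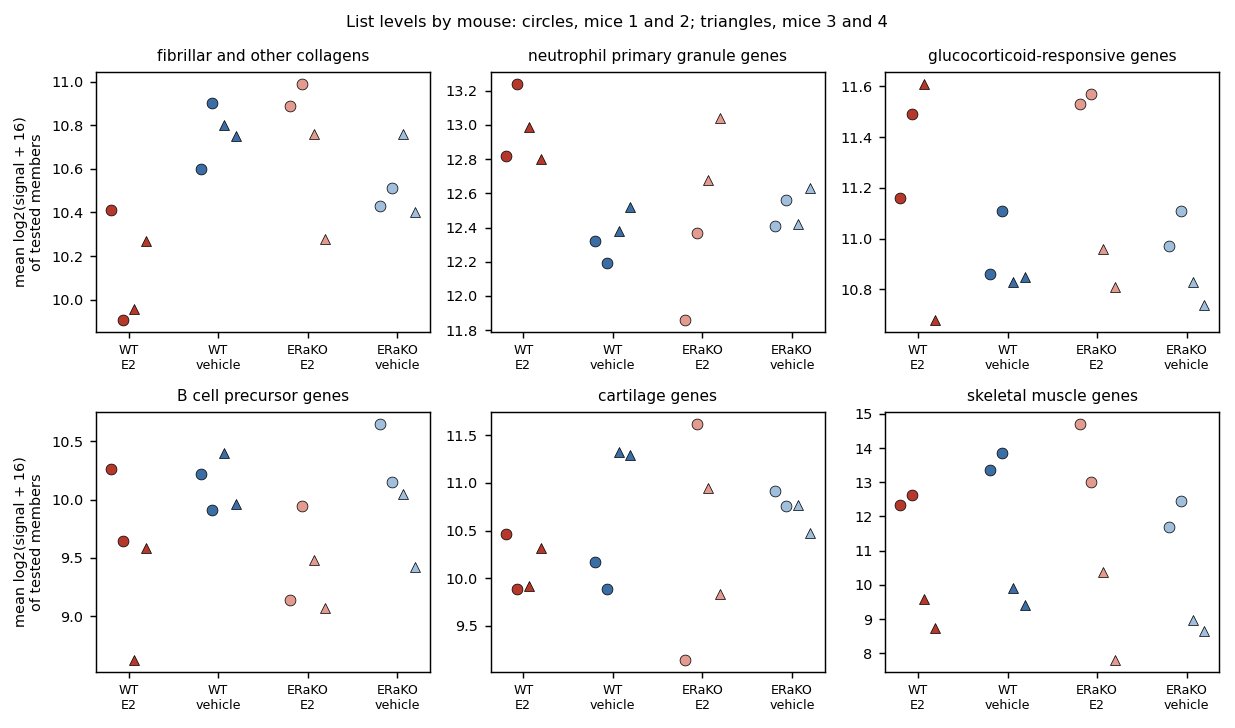
Mean log2(signal + 16) of the tested members of 6 gene lists in each mouse, for wild-type estrogen, wild-type vehicle, ERaKO estrogen and ERaKO vehicle mice (y axes do not start at 0). Circles are mice 1 and 2 and triangles mice 3 and 4. In wild type the collagen and primary granule lists separate the estrogen mice from the vehicle mice, the B cell precursor and cartilage lists do not, and the muscle list separates mice 1 and 2 from mice 3 and 4.

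B lymphocyte precursors pointed the other way. Of 22 tested genes 20 were lower and 10 (45.5%) lay lower at an unadjusted p under 0.05, with a median of −0.54. Ebf1, a transcription factor that commits cells to the B lineage, had signals of 669, 619, 154 and 406 with estrogen, against 822, 1389, 690 and 491 with vehicle. The groups overlapped, as vehicle mouse 4 was below estrogen mice 1 and 2, and the difference was −0.94 ± 0.27 (adjusted p = 0.171). Vpreb1, part of the surrogate light chain of pre-B cells, had signals of 6306, 2853, 33.1 and 853 with estrogen, against 4071, 3249, 4112 and 3346 with vehicle. Estrogen mouse 1 was the highest of all 8 and mouse 3 was close to background, so the difference of −1.98 ± 0.91 (adjusted p = 0.388) rests on mice 3 and 4. Bst1, a surface enzyme of marrow stroma and myeloid cells, was the 1 member higher at that threshold, at 1.03 ± 0.25.

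The precursor median was −0.14 among mice 1 and 2 and −0.84 among mice 3 and 4, and the count of lower members was 3 without estrogen mouse 3, 3 without vehicle mouse 3, 4 without vehicle mouse 4 and 5 without estrogen mouse 2, against 10 or more without any of the other 4. In ERaKO mice the median was −0.53 with 7 lower at an unadjusted p under 0.05. Mature B and plasma cell genes gave 19 of 26 lower and 7 (26.9%) lower at that threshold, including Irf4, a factor of plasma cell formation, at −1.71 ± 0.59, and 4 without vehicle mouse 3, estrogen mouse 2 or estrogen mouse 3. Their median was −0.29, and −0.14 with the 3 high spike-in arrays left out. Erythroid genes stood near 0: of 28 tested genes 14 were higher and 14 lower, 0 in either direction at an unadjusted p under 0.05.

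Signalling genes that react within hours were mixed. Of 24 immediate early genes 5 (20.8%) were higher and 2 (8.33%) lower at an unadjusted p under 0.05. Egr1, an early growth response factor, had signals of 2350, 2326, 3826 and 2343 with estrogen, against 1621, 1733, 1463 and 1239 with vehicle. The groups did not overlap, and the difference was 0.81 ± 0.19 (adjusted p = 0.111) beside 1.10 ± 0.19 in ERaKO mice. Ccn1, a secreted matrix protein that growth factors induce, had signals of 1212, 829, 2875 and 1940 with estrogen, against 630, 689, 787 and 740 with vehicle. Every estrogen mouse was above every vehicle mouse, by the most in mice 3 and 4, and the difference was 1.10 ± 0.34 (adjusted p = 0.202) beside 1.02 ± 0.34 in ERaKO mice. Nr4a2, an orphan nuclear receptor, stood at −0.74 ± 0.20. The feedback phosphatase genes Dusp7 and Dusp6, which switch off ERK, stood at −0.88 ± 0.20 and −0.62 ± 0.21. Esm1, a secreted product of sprouting endothelium, and Rgs2, which quiets G protein signals, stood at −1.17 ± 0.24 and −0.73 ± 0.16, beside −0.97 ± 0.24 and −0.67 ± 0.16 in ERaKO mice. Of 31 tested endothelial genes 15 were higher and 16 lower, 1 (3.23%) and 2 (6.45%) of them at an unadjusted p under 0.05, with a median of −0.05. Of 13 tested Rgs genes 4 were higher and 9 lower, 1 (7.69%) and 3 (23.1%) of them at that threshold.

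The NF-kappaB list, which holds Ikbke, gave 18 of 21 higher with a median of 0.16, and 3 (14.3%) higher at an unadjusted p under 0.05, Ikbke, Birc3 and Tnip2. The count was 1 with array quality weights, 6 with the mean over all probe sets and 5 without estrogen mouse 4 or vehicle mouse 4, and the median was 0.09 with the muscle level in the fit beside the set. Birc3, an inhibitor of apoptosis and target of this pathway, averaged 1743 ± 178 with estrogen and 1176 ± 132 with vehicle (SD, n = 4 each), without overlap, and stood at 0.56 ± 0.19. Tnip2 stood at 0.68 ± 0.30 with overlap. Interferon-stimulated genes gave 1 of 25 higher (4%) and 2 lower (8%) at that threshold, against 5.36% and 7.18% of all genes. Their median was −0.04, and Ifit3 stood at −1.04 ± 0.38. In ERaKO mice the median of these genes was −0.68, with 18 lower at that threshold. The list of genes known to answer glucocorticoids gave 21 of 23 higher, 5 (21.7%) higher and 1 lower at that threshold. Its median was 0.29, and 0.29 in ERaKO mice. The lower member was Cdkn1c, at −1.58 ± 0.29 (limma adjusted p = 0.0585), the member of smallest p. Fkbp5, a chaperone of the glucocorticoid receptor, had signals of 1344, 2157, 3310 and 2059 with estrogen, against 954, 1461, 892 and 938 with vehicle. Estrogen mouse 1 lay below vehicle mouse 2, and the difference was 1.01 ± 0.23 (adjusted p = 0.105). Without estrogen mouse 3 the median of the list was 0.07.

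Among genes reported elsewhere as estrogen targets 3 of 27 (11.1%) were higher and 6 (22.2%) lower at an unadjusted p under 0.05. Esr1 itself had signals of 475, 456, 434 and 664 with estrogen, against 792, 876, 1100 and 1011 with vehicle. The groups were apart, and the difference was −0.89 ± 0.19 (adjusted p = 0.0837). The other 2 Esr1 probe sets stood at −0.77 and −0.06. The cyclin gene Ccnd1 stood at −0.57 ± 0.18 and the lipase gene Lpl at −0.83 ± 0.24, while the progesterone receptor gene Pgr stood at 0.61 ± 0.28. The vitamin D receptor gene Vdr, from the list of nuclear receptors, stood at 0.64 ± 0.23. Fasl, the gene of Fas ligand, lay below the signal filter, at 119, 171, 99.6 and 115 with estrogen, against 75.6, 80.1, 67.2 and 54.3 with vehicle. In a fit without the filter it stood at 0.72 ± 0.28 (limma adjusted p = 0.376), with 0.25 for its second probe set.

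**Figure D5:**
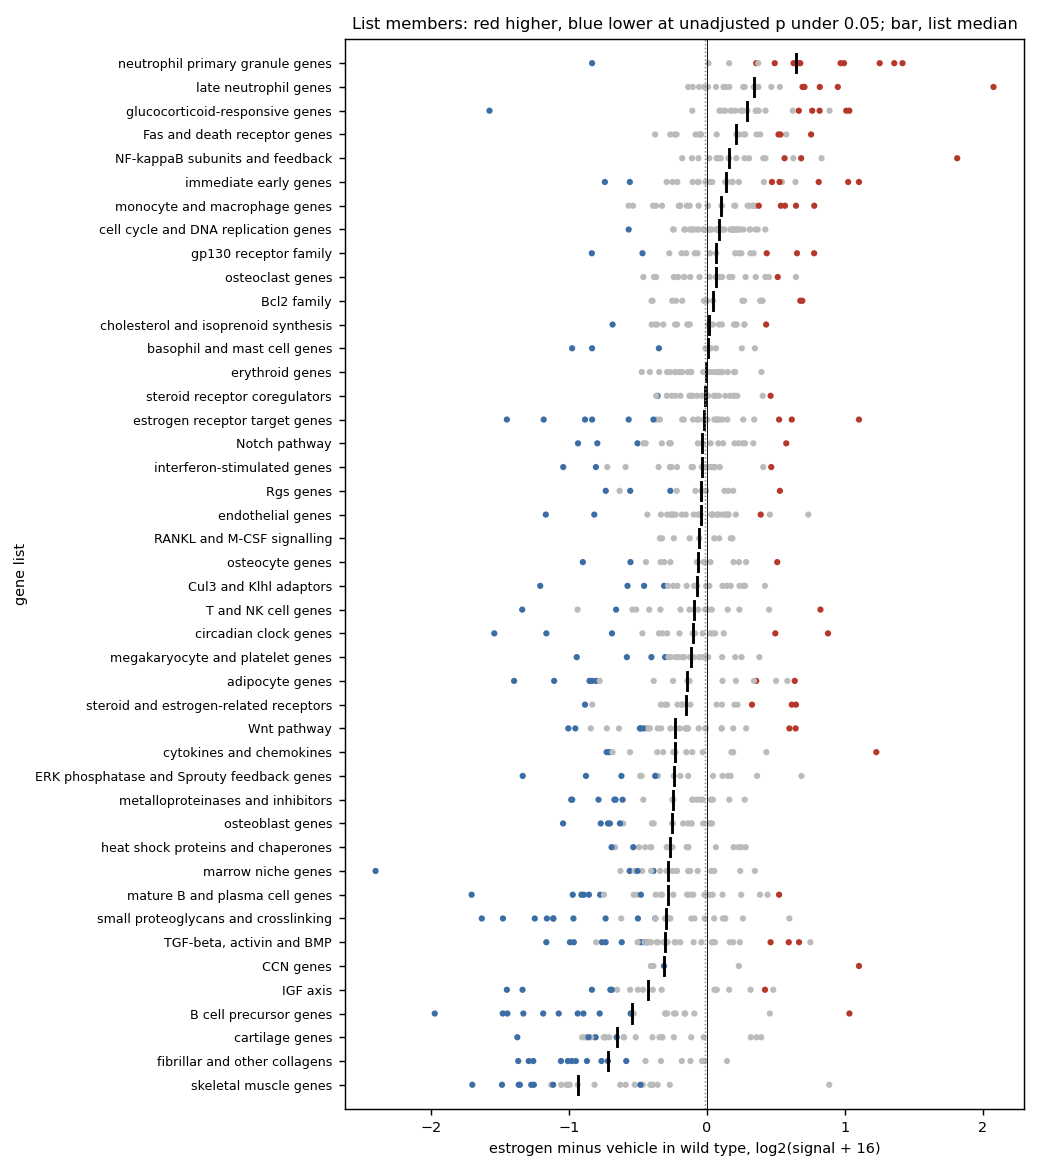
Estrogen minus vehicle difference in wild type on the log2(signal + 16) scale for the tested members of 44 gene lists, 1 point per gene, with a bar at each list's median. Red and blue points lie higher or lower at an unadjusted p under 0.05. Primary granule genes (median 0.65) stand at the top, and skeletal muscle (−0.94) and collagen genes (−0.72) at the bottom.

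Skeletal muscle genes were mostly lower in wild type, and fat genes were mixed. Of 25 skeletal muscle genes 24 were lower and 8 (32%) at an unadjusted p under 0.05, with a median of −0.94 in wild type and 1.11 in ERaKO mice, opposite in sign. The count of 8 was 0 without the replicate set term, 16 with the wild-type arrays only and 4 with the muscle level in the fit beside the set. The muscle level is the mean of these same 25 genes, so that fit takes out their shared difference by construction. The count was 3 without vehicle mouse 2, 5 without vehicle mouse 3 and 4 without estrogen mouse 1 or estrogen mouse 4. Casq1, a calcium store protein of muscle, stood at −1.49 ± 0.41 in wild type and 1.18 in ERaKO mice. With the muscle level in the fit beside the replicate set 1008 genes had an unadjusted p under 0.05, 429 of them higher and 579 lower, against 1596 without it. Of 17 adipocyte genes 7 were higher and 10 lower, 2 (11.8%) and 5 (29.4%) of them at that threshold, with a median of −0.14. The median was −0.78 among mice 1 and 2 and 0.34 among mice 3 and 4, so the sets had opposite signs, and it was −0.03 with the muscle level in the fit beside the set and 0.0031 with it in place of the set. Adipoq, the gene of the fat hormone adiponectin, had signals of 3382, 2345, 2601 and 2604 with estrogen, against 6967, 4972, 3684 and 3950 with vehicle. The groups did not overlap, and the difference was −0.80 ± 0.20 (adjusted p = 0.112). Scd1, a fatty acid desaturase, had signals of 2531, 2743, 1666 and 1136 with estrogen, against 10043, 13959, 2050 and 2256 with vehicle. Its gap was wide in mice 1 and 2 and narrow in mice 3 and 4, and it stood at −1.40 ± 0.32 (adjusted p = 0.101).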

How the data were processed

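RNA of 16 femora was measured on mouse expression arrays of 45101 probe sets. The deposited values are linear signal intensities, which the authors computed in GCOS according to the submitters' processing notes (version and settings not given in the sources used here). On every array the mean over probe sets, with the highest and lowest 2% left out, was 500, so levels are relative to an array's whole signal. Depth does not apply to arrays, and their number limits the precision.

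Of the probe sets, 64 controls were left out, 34945 carried 1 symbol and 932 carried several and were not named. RefSeq held 34741 of the single symbols. Each of 18193 genes was represented by the probe set with the highest mean signal, and the lowest 30% by mean were left out, which left 12735. Signals were taken as log2(signal + 16) and fitted with limma 3.58.1 in R 4.3.3 (lmFit, eBayes with a variance trend, 11 residual degrees of freedom), two-sided, with Benjamini-Hochberg adjustment over all tested genes and a threshold of 0.05. The fit was tested on simulated data with independent normal errors, which checks the code and does not bear on the calls above. Probe sets with no named gene numbered 9160, and of the 3761 above the floor 0 passed and 316 (8.4%) had an unadjusted p under 0.05.

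The mice were separate animals per the series design, so p-values measure the spread between mice. Same-numbered mice of different groups deviated together (24 correlations of 0.18 to 0.59, median 0.31), but so did mice of the other number in the same set (median 0.35). With the set removed the medians were −0.15 and −0.12. All 24 same-number correlations passed the threshold of 0.1 set for blocking, but only 2 did with the set removed. Taking out a set's mean lowers such correlations by construction, so that fall decides nothing by itself. By the medians, same-numbered mice were no closer than other mice of their set, before or after. The blocked values still stand beside the results whose call they change.

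Genes were named by rule: all past the threshold, the 12 higher and 12 lower of smallest p, up to 4 of smallest p in each of 44 lists, and Esr1, Fasl, Fas, Ctsk, Tnfsf11, Tnfrsf11b and Igf1. The mice compared, the lists and the rule were chosen with earlier results of these data known. Alternatives changed the offset, filter, normalization, replicate terms, arrays, weights, variance trend, muscle covariate and probe set rule.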

Additional observations from a re-analysis of the deposited data

Results flagged for a closer look

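In 68 groups of 4 values, 8 held a mouse far from the other 3 by Dixon's 95% critical value, where chance gives about 1 in 20. Klhl13 was lowest in estrogen mouse 3, at 397, and Fam167a was highest in estrogen mouse 4, at 215.9, the first away from the vehicle values and the second towards them. Cdkn1c was lowest in vehicle mouse 1, at 396.3. The median signal was highest in estrogen mouse 4, at 216.6. The mean bacterial spike-in signal was highest in estrogen mouse 2, at 32823, and in vehicle mouse 2, at 50791. The 3'/5' signal ratio for Actb was highest in the same mice, at 2.438 and 3.531.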

How the results depend on the processing

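The 5 genes past the limma adjusted threshold became 0 without the replicate set term, 0 with the replicate number as a block, 0 with the 3 high spike-in arrays left out and 0 with muscle and set together (added after seeing the data). With the 8 wild-type arrays only 17 genes passed, 4 of the 5 among them, as Fam167a had a limma adjusted p of 0.08225. With the muscle level in place of the set 14 passed, all 5 among them. Under the other 8 settings that kept all arrays the count was 4 to 7, but Igf1 and Klhl13 lost their call over all probe sets (where Nr1d2 passed), Klhl13 with quality weights, and Fam167a with an offset of 64, without the filter and with the lowest 50% left out, where it was not tested. Leaving out 1 array gave 0 to 78: 0 without vehicle mouse 2, vehicle mouse 3, estrogen mouse 2 or estrogen mouse 3, 1 without vehicle mouse 4, 8 without vehicle mouse 1, 48 without estrogen mouse 1, 72 without estrogen mouse 4, 11 without ERaKO vehicle mouse 3, 78 without ERaKO estrogen mouse 1 and 47 without ERaKO estrogen mouse 4. The 1596 genes at an unadjusted p under 0.05 became 1008 with muscle and set together and were 1211 to 2146 when 1 array was left out. The genotype difference gave 0 genes, or 0 to 46 when 1 array was left out, 46 without ERaKO estrogen mouse 4.

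Over 5893 settings of 185 named genes, 5676 kept direction and side of the threshold, 136 passed it newly and 65 lost it. In 11 genes 16 turned direction, and the cause was not tested. Only the 5 genes past the threshold in the main fit could lose it, so all 65 losses were theirs. With the main fit counted, Ikbke passed in 23 of 33 settings, Igf1 in 21, Tex2 in 22, Klhl13 in 20 and Fam167a in 13 of 32. Tnfsf11 turned to −0.0103 with quality weights, −0.47 over all probe sets and −0.0824 without estrogen mouse 3 (highest value with 1 array left out 0.206). Ccn3 turned to 0.32 with muscle in place of the set, 0.0433 without estrogen mouse 1 (−0.571 without estrogen mouse 4) and 0.21 within mice 3 and 4. Over all probe sets Tnfrsf11a turned to 0.15 and Jag1 to 0.0485. Nfe2 turned to −0.0019 with those 3 arrays left out and −0.13 within mice 3 and 4. Without vehicle mouse 2 Hmox1 turned to −0.12 and Fas to −0.019, against 0.668 and 0.505 without vehicle mouse 1. Within mice 1 and 2 Calcr turned to −0.0568 and Ccn4 to 0.0565, and within mice 3 and 4 Clec4e turned to −0.0194 and Thy1 to 0.0447. The replicate block changed no other call of a named gene in wild type.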

Other observations

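Of 17 tested clock genes 2 (11.8%) were higher and 3 (17.6%) lower at an unadjusted p under 0.05 in wild type. Dbp, a clock output factor, had signals of 644, 347, 161 and 529 with estrogen, against 1362, 1821, 847 and 747 with vehicle, without overlap. Its difference was −1.54 ± 0.36 (limma adjusted p = 0.105), beside 0.07 in ERaKO mice. Nr1d2, a repressor of the clock loop, stood at −1.17 ± 0.34, and Nfil3, which binds the same DNA sites as Dbp, at 0.88 ± 0.29.

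Of 8 tested basophil and mast cell genes 4 were higher and 4 lower, with a median of 0.01. At that threshold 3 (37.5%) were lower and 0 higher. The lower ones included Fcer1a, the IgE receptor chain, at −0.98 ± 0.38 and Cpa3, a mast cell protease, at −0.35 ± 0.15. Among death receptor genes 3 of 19 (15.8%) were higher, with Apaf1, which builds the apoptosome, at 0.53 ± 0.17 and Ripk3, a kinase of necroptosis, at 0.75 ± 0.30.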
